A study of Mus musculus with 10 samples.

Results

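The inflammasome and interleukin 1 family genes examined here were Il1a, Il1b, Il1rn, Il18, Nlrp3, Aim2, Pycard, Casp1, Casp4 and Gsdmd. They were chosen by symbol, for what their proteins are known to do, with earlier results of these data known. The symbols were matched through Ensembl identifiers to rows of the count table. All 10 symbols matched, out of 56884 rows in all.

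The data came from a study of elevated androgen in females with tau pathology. Bulk RNA-seq was measured in the hippocampus of 10 female P301S mice (line PS19, mixed B6;C3 background), with a separate library for each mouse. The transgene of this line is human 1N4R Tau with the P301S mutation, and the mouse Prnp promoter drives it, so its expression follows that promoter and not the human tau gene's own. All 10 mice carried the transgene and kept their ovaries. At 6 months of age 5 of them received a subcutaneous implant holding 10 mm of dihydrotestosterone (DHT) powder, an androgen that aromatase does not convert to estrogen. The other 5 received an empty implant (void). Hippocampi were taken after 12 weeks, at 9 to 9.5 months.

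Inflammasomes are protein platforms that assemble in the cytosol when a sensor such as NLRP3 or AIM2 meets its trigger. The sensor recruits the adaptor ASC, encoded by Pycard, and ASC recruits pro-caspase-1, which then cleaves the precursors of interleukin 1 beta and interleukin 18 and the pore-forming protein gasdermin D. In the brain, microglia are a known source of these proteins, and NLRP3 inflammasome activity has been linked to tau pathology in mouse models. Most of these steps act on proteins, so RNA levels describe the supply of the components and not the activity of the complex.

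Total counts, the depth of each library, lay between 27188854 and 47113661 in void-treated females and between 33523527 and 45947784 in DHT-treated females (exact permutation test of the difference, two-sided, p = 0.365). Levels are given as CPM, a gene's counts scaled by the library total after TMM normalization. The void libraries are listed in the order of replicates 4, 5, 9, 10 and 11, and the DHT libraries in the order of replicates 1, 2, 3, 5 and 6. Fold changes are DHT over void. The library numbers in the sample labels ran from 4 to 11 for the void group and from 18 to 23 for the DHT group, so an effect of library order cannot be told apart from one of treatment. Hippocampal neuron markers (Prox1, Neurod6, Fibcd1, Wfs1, Zbtb20 and Spink8) were present in every library, with a summed level of 1435 ± 207 CPM in void and 1423 ± 132 CPM in DHT-treated females (SD, n = 5 each).

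Il1b and Pycard rose with DHT supplementation. Of the 10 genes, 9 passed edgeR's filter on low counts and were fitted among 17622 genes, and Il1rn did not pass. The filter asked for about 0.292 CPM in enough libraries: Il1b reached it in 1 void and 5 DHT libraries, and Casp4 in 3 void and 5 DHT libraries. Il1b passed only through the group in which it was higher. For Casp4 too, the void libraries past the cutoff would not have sufficed without the DHT group. At an adjusted p under 0.05, 2 of the 10 genes were higher, against 5.22% of all genes fitted. With a log2 fold change above 1 as well, Il1b alone of the 10 was called, against 2.17% of all genes, a count that rests on the filter. None of the 10 was lower, against 0.261% of all genes, by the edgeR quasi-likelihood test after Benjamini-Hochberg adjustment. The number lower was also 0 at an unadjusted p under 0.05 (4.22% of all genes) and by DESeq2 (1.07% of its genes). By DESeq2, 4 of the 10 genes were higher at an adjusted p under 0.05 (5.84% of all its genes) and 2 were called (2.22%). With at least 10 counts required in every library, 1 was higher (5.2% of all genes) and 0 were called (1.7%), and with every gene that had a count fitted 2 were called (1.34%), after Benjamini-Hochberg adjustment in each fit, by the edgeR quasi-likelihood test. In 3 of the 10 genes (Il1b, Nlrp3 and Pycard) every DHT library lay above every void library, against 5.39% of all genes fitted.

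**Figure D1:**
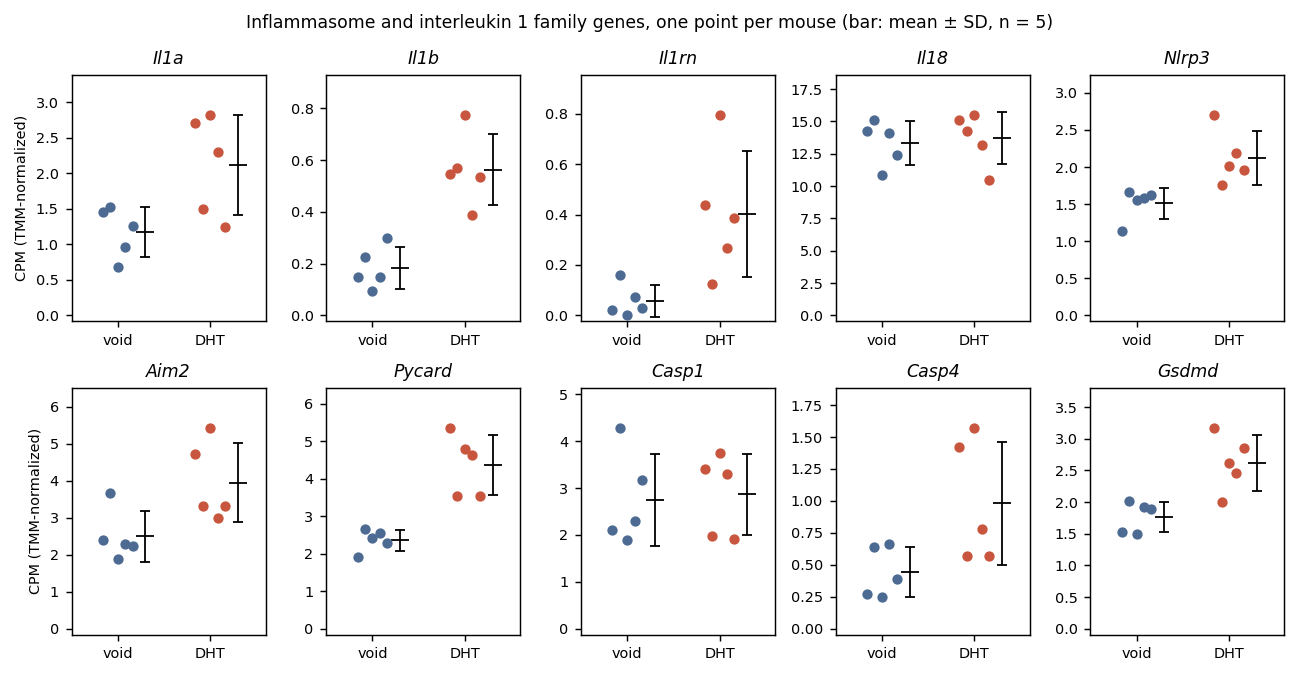
TMM-normalized CPM (vertical axis, a separate scale in each panel) of the 10 genes in void-treated (blue) and DHT-treated (red) females. Each point is a mouse and the black bars are the mean ± SD of 5 mice. The groups do not overlap for Il1b, Nlrp3 and Pycard, while Il18 and Casp1 cover nearly the same range in both groups.

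Among the ligands, Il1b (ENSMUSG00000027398) encodes interleukin 1 beta, a cytokine made as an inactive precursor that an inflammasome must release. In void-treated females Il1b stood at 0.148, 0.224, 0.0931, 0.148 and 0.300 CPM, and in DHT-treated females at 0.546, 0.568, 0.775, 0.389 and 0.536 CPM. The lowest DHT library, replicate 5, lay above the highest void library, replicate 11, so the groups did not overlap. The means were 0.182 ± 0.0803 CPM and 0.563 ± 0.138 CPM (SD, n = 5 each). These are low levels: the raw counts were 7, 7, 3, 4 and 10 in void and 20, 23, 37, 13 and 18 in DHT libraries, 31 against 111 in all. The log2 fold change was 1.63 with a standard error of 0.30, a 3.09-fold rise with a 95% interval of 1.96 to 4.87 (edgeR quasi-likelihood test, Benjamini-Hochberg adjusted p = 0.0117). Since Il1b was kept by the filter only through the DHT group, that test had the limit given above. In the fit that kept every gene with a count, whatever its group, the log2 fold change was 1.61 (edgeR quasi-likelihood test, Benjamini-Hochberg adjusted p = 0.00931). Il1b passed in each of the 10 fits that left out a mouse, with log2 fold changes of 1.45 to 1.85. Those 10 fits were filtered by group again, so the limit of the filter holds for them too. In bulk tissue, more cells that express a gene and more RNA of it in each cell cannot be told apart, here and for every gene below.

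Il1a encodes interleukin 1 alpha, which binds the same receptor and is active as a precursor, so it can act as an alarm signal from damaged cells. Il1a stood at 1.46, 1.53, 0.682, 0.959 and 1.26 CPM in void and at 2.7, 1.51, 2.83, 2.30 and 1.25 CPM in DHT libraries. DHT replicates 1, 3 and 5 lay above every void library, while DHT replicates 2 and 6 lay within the void range. With a log2 fold change of 0.84 (standard error 0.28), Il1a did not pass (edgeR quasi-likelihood test, Benjamini-Hochberg adjusted p = 0.111).

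Il18 encodes interleukin 18, which microglia and other brain cells can hold as a precursor and which, once cleaved by caspase-1, drives interferon gamma release by lymphocytes. Its void libraries read 14.3, 15.1, 10.9, 14.1 and 12.4 CPM and its DHT libraries 15.1, 14.3, 15.5, 13.2 and 10.5 CPM. Both groups held high and low mice and overlapped almost entirely, with DHT replicate 6 the lowest of all 10. The log2 fold change was 0.04, with a 95% interval from -0.22 to 0.30 (edgeR quasi-likelihood test, Benjamini-Hochberg adjusted p = 0.923).

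Il1rn encodes the interleukin 1 receptor antagonist, a secreted protein that occupies the receptor without signalling. It was almost at the floor in void-treated females, at 0.0211, 0.160, 0, 0.0738 and 0.0300 CPM, and stood at 0.437, 0.123, 0.796, 0.269 and 0.387 CPM with DHT. All DHT libraries but replicate 2 lay above every void library, and void replicate 5 lay just above DHT replicate 2. The counts behind these values were 1, 5, 0, 2 and 1 in void against 16, 5, 38, 9 and 13 in DHT libraries, with 9 counts in all against 81. The ratio of the mean CPM was 7.07. Il1rn was too low for the filter and was fitted only by alternatives that kept it: with every gene that had a count fitted, the log2 fold change was 2.85 (edgeR quasi-likelihood test, Benjamini-Hochberg adjusted p = 0.0130). DESeq2 gave 2.87 with a Benjamini-Hochberg adjusted p of 0.00343. In the former fit 3 of the 10 genes (Il1b, Il1rn and Pycard) were higher, against 2.69% of 35326 genes.

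Of the sensors, NLRP3 responds to many kinds of cell stress, among them potassium loss, lysosome damage and protein aggregates. Nlrp3 RNA stood at 1.14, 1.66, 1.55, 1.59 and 1.62 CPM in void and at 2.7, 1.75, 2.01, 2.18 and 1.97 CPM in DHT libraries. Every DHT library was above every void library, though DHT replicate 2 lay only slightly above void replicate 5. The means were 1.51 ± 0.211 and 2.12 ± 0.360 CPM (SD, n = 5 each). The log2 fold change of 0.49 (standard error 0.16) did not pass the test across all genes (edgeR quasi-likelihood test, Benjamini-Hochberg adjusted p = 0.111).

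AIM2 binds double-stranded DNA in the cytosol and is itself induced by interferon. Aim2 stood at 2.39, 3.67, 1.89, 2.29 and 2.25 CPM in void and at 4.73, 3.31, 5.43, 2.99 and 3.30 CPM in DHT libraries. A single void mouse, replicate 5, stood apart from the other 4 and lay above DHT replicates 2, 5 and 6. Over all mice the log2 fold change was 0.67 with a standard error of 0.21 (edgeR quasi-likelihood test, Benjamini-Hochberg adjusted p = 0.105). Without void replicate 5 it was 0.84 and passed (same test, Benjamini-Hochberg adjusted p = 0.0390), and over all alternatives the adjusted p of this edgeR or DESeq2 test ranged from 0.0390 to 0.991.

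Pycard (ENSMUSG00000030793) encodes ASC, the adaptor that joins either sensor to pro-caspase-1 and condenses into a speck when an inflammasome forms. Its void libraries read 1.92, 2.65, 2.42, 2.55 and 2.28 CPM and its DHT libraries 5.36, 3.53, 4.80, 4.64 and 3.54 CPM. No DHT library reached down to the void range, and DHT replicates 2 and 6 were the lowest of the DHT group. The means were 2.36 ± 0.283 and 4.37 ± 0.809 CPM (SD, n = 5 each). Pycard rose 1.86-fold with a 95% interval of 1.48 to 2.33, a log2 fold change of 0.89 with a standard error of 0.15 (edgeR quasi-likelihood test, Benjamini-Hochberg adjusted p = 0.00948). It passed in all 10 fits that left out a mouse, with log2 fold changes of 0.77 to 0.96. By unadjusted p, Pycard ranked 137 and Il1b 241 among the 17622 genes.

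Caspase-1 is the protease that matures both cytokines. Casp1 stood at 2.11, 4.28, 1.89, 2.29 and 3.18 CPM in void and at 3.42, 1.97, 3.75, 3.29 and 1.91 CPM in DHT libraries. The highest library of all 10 was void replicate 5, and the groups overlapped over nearly their whole range. The log2 fold change was 0.07, with a 95% interval from -0.51 to 0.64 (edgeR quasi-likelihood test, Benjamini-Hochberg adjusted p = 0.944).

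Casp4 encodes the mouse protease also called caspase-11, which binds bacterial lipopolysaccharide directly and cleaves gasdermin D in the noncanonical pathway. Casp4 stood at 0.275, 0.639, 0.248, 0.664 and 0.389 CPM in void and at 1.42, 0.568, 1.57, 0.778 and 0.566 CPM in DHT libraries. DHT replicates 1 and 3 were far above the rest and replicate 5 slightly above the void range, while DHT replicates 2 and 6 fell among the void libraries. Casp4 had a log2 fold change of 1.19 with a wide standard error of 0.38 and did not pass (edgeR quasi-likelihood test, Benjamini-Hochberg adjusted p = 0.106). With 3 void and 5 DHT libraries past the cutoff, the limit of the filter given above holds for Casp4 too.

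Gsdmd encodes gasdermin D, whose cleaved end forms membrane pores that let interleukin 1 beta out and can lyse the cell. Its void libraries read 1.52, 2.01, 1.49, 1.92 and 1.89 CPM and its DHT libraries 3.17, 2.0, 2.62, 2.45 and 2.86 CPM. All DHT libraries but replicate 2 lay above every void library, and DHT replicate 2 lay just under void replicate 5. Gsdmd, with a log2 fold change of 0.57 (standard error 0.16), missed the threshold (edgeR quasi-likelihood test, Benjamini-Hochberg adjusted p = 0.0566). It passed without DHT replicate 2 (0.65, same test, Benjamini-Hochberg adjusted p = 0.0269) and by DESeq2 (0.55, Benjamini-Hochberg adjusted p = 0.0289). Over all alternatives the adjusted p of the edgeR or DESeq2 test ranged from 0.0269 to 0.992.

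**Figure D2:**
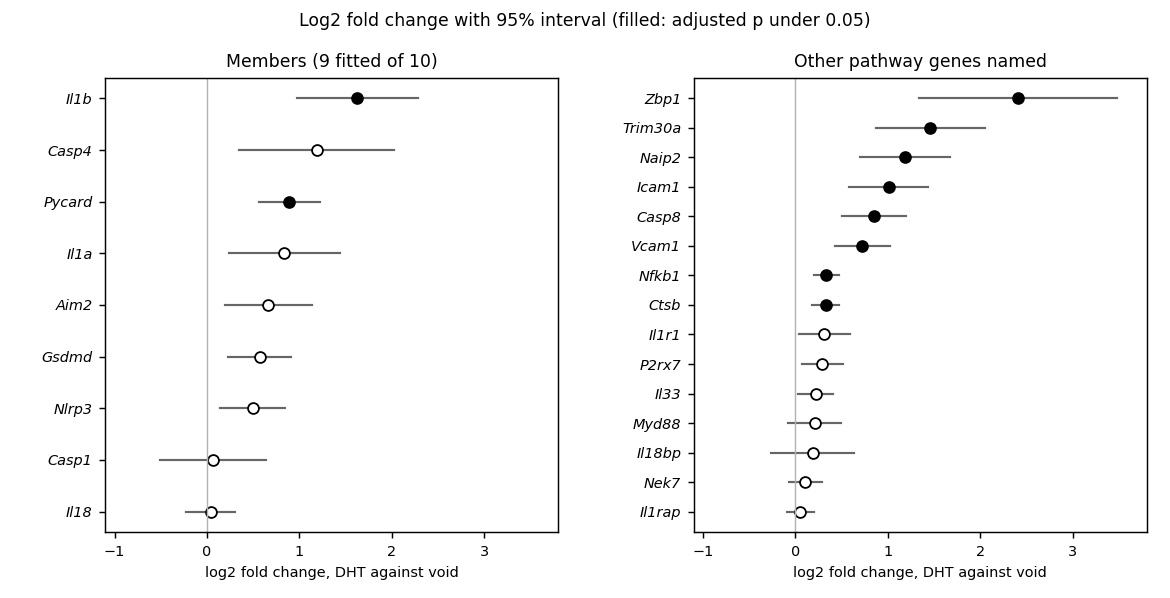
Log2 fold change (horizontal axis, DHT against void) with its 95% interval for the 9 fitted genes of the 10 (left) and for the other pathway genes named in the text that could be fitted (right). Filled circles mark an adjusted p under 0.05 by edgeR's quasi-likelihood test, which are Il1b and Pycard on the left and 8 genes on the right.

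The genes also differed in abundance, compared here as CPM per kilobase of exon. The length was the union of all annotated exons, from 1031 bases for Il18 to 5535 for Il1rn. The order of the genes therefore depends on the annotation. Il18 was the most abundant in void-treated females at 13 ± 1.64 CPM per kilobase, followed by Casp1 at 1.84 ± 0.658 (SD, n = 5). Gsdmd (0.743 ± 0.102), Aim2 (0.714 ± 0.195), Pycard (0.622 ± 0.0745) and Il1a (0.597 ± 0.180) came next in CPM per kilobase, and neighbours among these 4 did not differ beyond their spread. Nlrp3 followed at 0.373 ± 0.0520, then Casp4 at 0.119 ± 0.0533 and Il1b at 0.0956 ± 0.0421 CPM per kilobase, the last pair within their spread of each other. Il1rn was the lowest at 0.0103 ± 0.0115 CPM per kilobase. With DHT, Il18 (13.3 ± 1.96) and Casp1 (1.92 ± 0.577) still led on this scale. Pycard (1.15 ± 0.213), Aim2 (1.13 ± 0.304), Gsdmd (1.10 ± 0.185) and Il1a (1.07 ± 0.359 CPM per kilobase) lay within their spread of each other. Nlrp3 followed at 0.523 ± 0.0887 CPM per kilobase. Il1b (0.295 ± 0.0724) then stood beside Casp4 (0.264 ± 0.130), and Il1rn remained lowest at 0.0727 ± 0.0453 CPM per kilobase.

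Ratios within a mouse show how the mix of components differed between groups. The log2 ratio of Il1b to Il18 was -5.87 ± 0.45 in void and -4.49 ± 0.31 in DHT-treated females (log2 CPM with a prior count of 2, SD, n = 5), a difference of 1.38, and the groups did not overlap. The log2 ratio of Pycard to Casp1 was -0.16 ± 0.42 in void and 0.64 ± 0.22 with DHT. The lowest DHT mouse, replicate 3 at 0.35, was level with the highest void mouse, replicate 9, also at 0.35. The ratio of Casp4 to Casp1 differed by 0.96 on the log2 scale, and those of Il1a to Il1b and of Il1b to Il1rn by -0.61 and -0.60, all with overlapping groups. These ratios were not tested.

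The mice can also be read across the 10 genes. DHT replicates 1 and 3 stood above the median of the void group in 10 of 10 genes, DHT replicates 2 and 5 in 9, and DHT replicate 6 in 7. Of the void mice, replicate 5 stood above that median in 10 of 10 genes and replicate 9 in 0. DHT replicates 2 and 6 fell within the void range for Il1a, Aim2 and Casp4.

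Other genes of the pathway were read from 7 lists, also chosen with earlier results of these data known, which held 78 genes. Of these, 54 could be fitted and 8 had a higher level at an adjusted p under 0.05, against 5.22% of all 17622 genes fitted (edgeR quasi-likelihood test, Benjamini-Hochberg adjustment). DESeq2 gave 12, against 5.84% of the 20917 genes it adjusted over, which added Irak4, Naip5, Steap4 and Ccl2, named here after their values were seen. The median log2 fold change was 0.26 over the 54 and 0.01 over all genes. Of the 8, Zbp1 passed the filter on low counts only through the DHT group, with 0 void and 5 DHT libraries past the cutoff of 0.292 CPM, so the group in which it was higher decided that it was tested. The medians and counts over fitted genes are a description for that reason. In 5 of the 78 genes (Il36a, Il36rn, Il1f10, Gsdmc and Csf2) all 10 libraries were at 0. No pathway gene was lower by edgeR's quasi-likelihood test, at an unadjusted p under 0.05 or by DESeq2. In each of the 8, which the test had selected, every DHT library lay above every void library, as in 5.39% of all genes fitted. Of the other pathway genes, Irak3, Irak4 and Tnf also had no overlap, and Irak3 is named here after its values were seen. The near-identical Naip genes and any reads that match several genes are uncertain, since the handling of such reads is not given in the sources used here.

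The receptors came first in the pathway and none of the 6 fitted passed at an adjusted p under 0.05, by edgeR's quasi-likelihood test or by DESeq2 with Benjamini-Hochberg adjustment (median log2 fold change 0.25). At an unadjusted p under 0.05, 3 of the 6 were higher by edgeR, against 13.1% of all genes. Il1rl1, named for its filter counts after its values were seen, is among the 3. It reached the cutoff in 3 void and 5 DHT libraries, so the void group alone would not have kept it. That count and the median are a description for that reason. Il1r1, the signalling receptor for both forms of interleukin 1, stood at 15.0 ± 1.31 CPM in void and 18.6 ± 3.70 CPM with DHT (log2 fold change 0.31, edgeR quasi-likelihood test, Benjamini-Hochberg adjusted p = 0.221). DHT replicates 1 and 3 lay above the void range and the other 3 within it. Il1rap, its accessory chain, stood at 70.3 ± 4.29 and 72.9 ± 5.97 CPM with overlapping groups. The decoy receptor Il1r2 had 37 counts over the void and 52 over the DHT libraries and was not fitted. Il18bp, a secreted protein that traps interleukin 18, stood at 2.19 ± 0.454 and 2.47 ± 0.711 CPM. Among the other ligands of the family, Il33, a nuclear alarm cytokine, was the only one of 6 that could be fitted, at 73.0 ± 4.74 and 84.9 ± 11.2 CPM (0.22, edgeR quasi-likelihood test, Benjamini-Hochberg adjusted p = 0.206).

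Below the receptors, 1 of 14 signalling genes rose (median log2 fold change 0.14), a share near the 5.22% of all genes that did. By DESeq2 2 of 14 passed, against 5.84% of all its genes. The other was Irak4, a kinase below the receptor that is named here after its values were seen, with a log2 fold change of 0.53 by edgeR's quasi-likelihood test (Benjamini-Hochberg adjusted p = 0.0791) and 0.51 by DESeq2 (Benjamini-Hochberg adjusted p = 0.0425). Nfkb1, which encodes a subunit of NF-kB, the transcription factor that raises Il1b and Nlrp3 in other settings, stood at 18.3, 18, 18.2, 19.3 and 18.8 CPM in void and at 25.2, 22.1, 24.0, 21.9 and 23.5 CPM in DHT libraries. Both groups were tight and well apart, so a log2 fold change of 0.33 passed (edgeR quasi-likelihood test, Benjamini-Hochberg adjusted p = 0.0117). Without DHT replicate 1 it did not pass (same test, Benjamini-Hochberg adjusted p = 0.0564, the highest of the 10 such fits). Myd88, the adaptor of the receptor, stood at 4.73 ± 0.612 and 5.45 ± 0.770 CPM, and DHT replicate 2 lay within the void range.

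Of the other sensors, 6 of 11 could be fitted and 1 rose, against 5.22% of all genes. Nlrp1a, named for its filter counts after its values were seen, reached the cutoff in 1 void and 5 DHT libraries, so it was fitted only through the group in which it was higher and no median over the 6 is given. The gene that rose was Naip2, which detects parts of bacterial secretion systems and signals through NLRC4. Naip2 stood at 2.26, 2.01, 1.74, 2.84 and 2.01 CPM in void and at 6.78, 3.08, 6.43, 4.52 and 3.87 CPM in DHT libraries. DHT replicates 1 and 3 were the highest and DHT replicate 2 was close to void replicate 10. Naip2 rose 2.28-fold, a log2 fold change of 1.19 (edgeR quasi-likelihood test, Benjamini-Hochberg adjusted p = 0.0122). Its partner Nlrc4 had 20 counts over the void and 39 over the DHT libraries and was not fitted.

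Among proteins that license or restrain inflammasomes, 3 of 11 passed, against 5.22% of all genes, and Zbp1, which the filter kept through 0 void and 5 DHT libraries, is among the 3. The median log2 fold change was 0.31, and 0.01 over all genes. Trim30a, an interferon-induced protein that restrains NLRP3 and NF-kB signalling, stood at 2.49, 4.67, 2.23, 3.10 and 3.74 CPM in void and at 10.8, 5.97, 14.1, 6.25 and 7.35 CPM in DHT libraries. All DHT libraries lay above the void range and replicates 1 and 3 stood out again, with a log2 fold change of 1.46 (edgeR quasi-likelihood test, Benjamini-Hochberg adjusted p = 0.0117). Zbp1, a nucleic acid sensor that can engage RIPK3 and NLRP3, went from 0.188 ± 0.0933 to 0.955 ± 0.607 CPM, a log2 fold change of 2.41 on 30 and 194 counts, with the limit of the filter given above (edgeR quasi-likelihood test, Benjamini-Hochberg adjusted p = 0.0161). Ctsb, the lysosomal protease cathepsin B, went from 447 ± 27.8 to 560 ± 41.4 CPM (0.33, edgeR quasi-likelihood test, Benjamini-Hochberg adjusted p = 0.0150). In fits that left out a mouse, the adjusted p of these last 2 went past 0.05: for Zbp1 without void replicate 11 (0.0572) and for Ctsb without void replicate 11 or DHT replicate 1 (up to 0.0706, Benjamini-Hochberg adjusted p of the edgeR quasi-likelihood test). Over the 10 such fits the log2 fold changes were 1.93 to 2.63 for Zbp1 and 0.26 to 0.37 for Ctsb. P2rx7, the ATP-gated channel that starts potassium efflux, stood at 13.7 ± 1.90 and 16.7 ± 1.32 CPM (0.29, same test, Benjamini-Hochberg adjusted p = 0.139), with 4 of 5 DHT libraries above every void library. Nek7, the kinase that binds NLRP3, stood at 78.7 ± 7.59 and 84.8 ± 8.39 CPM with overlapping groups.

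Of the other caspases, gasdermins and membrane rupture proteins, 7 of 11 could be fitted and 1 rose, Casp8, against 5.22% of all genes (median log2 fold change 0.17, and 0.01 over all genes). Caspase-8 starts apoptosis below death receptors and can also cleave the precursor of interleukin 1 beta and gasdermin D. Casp8 stood at 3.51, 3.55, 3.82, 2.99 and 2.73 CPM in void and at 8.22, 5.58, 6.10, 4.97 and 5.0 CPM in DHT libraries. DHT replicate 1 was the highest, and the lowest DHT library, replicate 5, lay clear of void replicate 9. The rise was 1.80-fold, a log2 fold change of 0.85 (edgeR quasi-likelihood test, Benjamini-Hochberg adjusted p = 0.0119).

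Genes known to be induced by interleukin 1 and NF-kB were the last list, with 9 of 16 fitted and 2 higher, against 5.22% of all genes. Lcn2, named likewise for its filter counts, reached the cutoff in 1 void and 4 DHT libraries. The 2 that were higher both encode adhesion molecules that bind leukocytes. Icam1 went from 2.79 ± 0.579 to 5.58 ± 1.32 CPM, a 2.01-fold rise (log2 fold change 1.01, edgeR quasi-likelihood test, Benjamini-Hochberg adjusted p = 0.0133). Vcam1 went from 38.4 ± 3.42 to 63.3 ± 14.6 CPM (0.72, same edgeR test, Benjamini-Hochberg adjusted p = 0.0122). The cytokines of the list were near the floor. Tnf, which encodes tumor necrosis factor, had counts of 1, 1, 2, 2 and 3 in void and 7, 6, 7, 7 and 13 in DHT libraries, so the groups did not overlap but the gene was too low for the filter. With every gene that had a count fitted, the log2 fold change of Tnf was 1.92 (edgeR quasi-likelihood test, Benjamini-Hochberg adjusted p = 0.0417), and DESeq2 gave 1.97 (Benjamini-Hochberg adjusted p = 0.0562). Ccl2, a chemokine that draws monocytes, was chosen after its values were seen. It had 19 counts over the void and 68 over the DHT libraries, and all DHT libraries but replicate 2 lay above every void library. It was also too low for the filter, and its log2 fold change was 1.6 with every gene that had a count fitted (edgeR quasi-likelihood test, Benjamini-Hochberg adjusted p = 0.0557) and 1.61 by DESeq2 (Benjamini-Hochberg adjusted p = 0.0457). Il6 had 10 counts over the void and 8 over the DHT libraries, and a difference was not detectable at this depth.

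Markers of other cell types moved with the groups. The 12 homeostatic microglia markers (among them P2ry12, Tmem119, Cx3cr1, Csf1r, Sall1 and Gpr34) summed to 516, 518, 499, 571 and 519 CPM in void and to 953, 682, 695, 736 and 697 CPM in DHT libraries. DHT replicate 1 was the highest by far and the groups did not overlap. The log2 difference was 0.51 (exact permutation test, two-sided, p = 0.00794, which is the lowest possible with 5 mice in each group, and 0.0476 after Benjamini-Hochberg adjustment over 12 marker lists). All 12 had a positive log2 fold change. By the edgeR test across all genes 4 of the 12 were higher, against 5.22% of all genes, Csf1r, Cx3cr1 and Gpr34 among them. The other 8 did not pass. Among these were P2ry12 (0.16), Tmem119 (0.38) and Sall1 (0.30, edgeR quasi-likelihood test, Benjamini-Hochberg adjusted p = 0.479, 0.148 and 0.127). Csf1r, the receptor that microglia need to survive, stood at 103 ± 10.2 CPM in void and 151 ± 19.5 CPM in DHT-treated females.

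Set against the mean log2 CPM of these microglia markers in the same mouse, the 10 genes differed from each other. Relative to the markers, Pycard was higher with DHT by 0.44 on the log2 scale, with all 5 DHT mice above the highest void mouse. Il1b was higher by 1.0 and Il1rn by 1.6, each with 4 of 5 DHT mice above the void range. Casp4 (0.60), Il1a (0.38), Aim2 (0.23), Gsdmd (0.13) and Nlrp3 (0.05) had positive log2 differences with overlapping groups. Il18 (-0.39) and Casp1 (-0.35) were lower relative to the markers, with 3 and 2 of 5 DHT mice below the void range. With the microglia markers as a covariate in the edgeR fit, Il1b had a log2 fold change of 1.58 and Pycard 0.44 and neither passed (quasi-likelihood test, Benjamini-Hochberg adjusted p = 0.991 for each). The log2 fold changes of Casp4 (0.04 in place of 1.19), Gsdmd (0.09 in place of 0.57), Il1a (0.29 in place of 0.84), Aim2 (0.25 in place of 0.67) and Nlrp3 (-0.01 in place of 0.49) were also smaller in that fit, and those of Il18 and Casp1 were -0.19 and -0.39. None of the 17622 genes fitted passed in that fit, where 505 had an unadjusted p under 0.05. The covariate separates the groups completely, so its part and that of the treatment cannot be told apart.

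Choroid plexus markers differed more. The 12 markers (Ttr, Kl, Folr1, Aqp1, Clic6, Kcnj13, Otx2, Slc4a5, Cldn2, Enpp2, Sostdc1 and Prlr) summed to 1720, 389, 3269, 930 and 361 CPM in void and to 5742, 4106, 4219, 3908 and 4352 CPM in DHT libraries. The void mice spread widely and the groups did not overlap (log2 difference 2.23, exact permutation test, two-sided, p = 0.00794, Benjamini-Hochberg adjusted p = 0.0476 over 12 lists). Enpp2 was the most abundant, at 628 ± 472 and 2059 ± 398 CPM. Ttr, which encodes transthyretin, stood at 670, 65.1, 1335, 329 and 62.5 CPM in void and at 1728, 1342, 1289, 1569 and 1665 CPM in DHT libraries. Void replicate 9 had the highest summed level of the void mice. It lay below every DHT mouse in 10 of the 12 markers and within the DHT range in Ttr and Prlr. Without void replicate 9 the log2 fold change was 1.47 for Il1b and 0.90 for Pycard (edgeR quasi-likelihood test, Benjamini-Hochberg adjusted p = 0.0136 and 0.00846). With the choroid plexus markers as a covariate it was 2.59 and 0.95, and neither passed (same edgeR test, Benjamini-Hochberg adjusted p = 0.550 for each). The log2 fold changes of the other fitted genes were also larger with the choroid plexus covariate, unlike with the microglia covariate. They were 1.78 for Casp4 (in place of 1.19), 1.204 for Il1a (0.84) and 1.01 for Aim2 (0.67). Those of Gsdmd, Casp1, Nlrp3 and Il18 were 0.82, 0.80, 0.61 and 0.16, in place of 0.57, 0.07, 0.49 and 0.04. The choroid plexus covariate too separates the groups completely, so its part and that of the treatment cannot be told apart. In that fit too none of the 17622 genes passed, and 1234 had an unadjusted p under 0.05. Of the 10 genes, 7 had an unadjusted p under 0.05 in that fit, and 1 did with the microglia covariate.

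**Figure D3:**
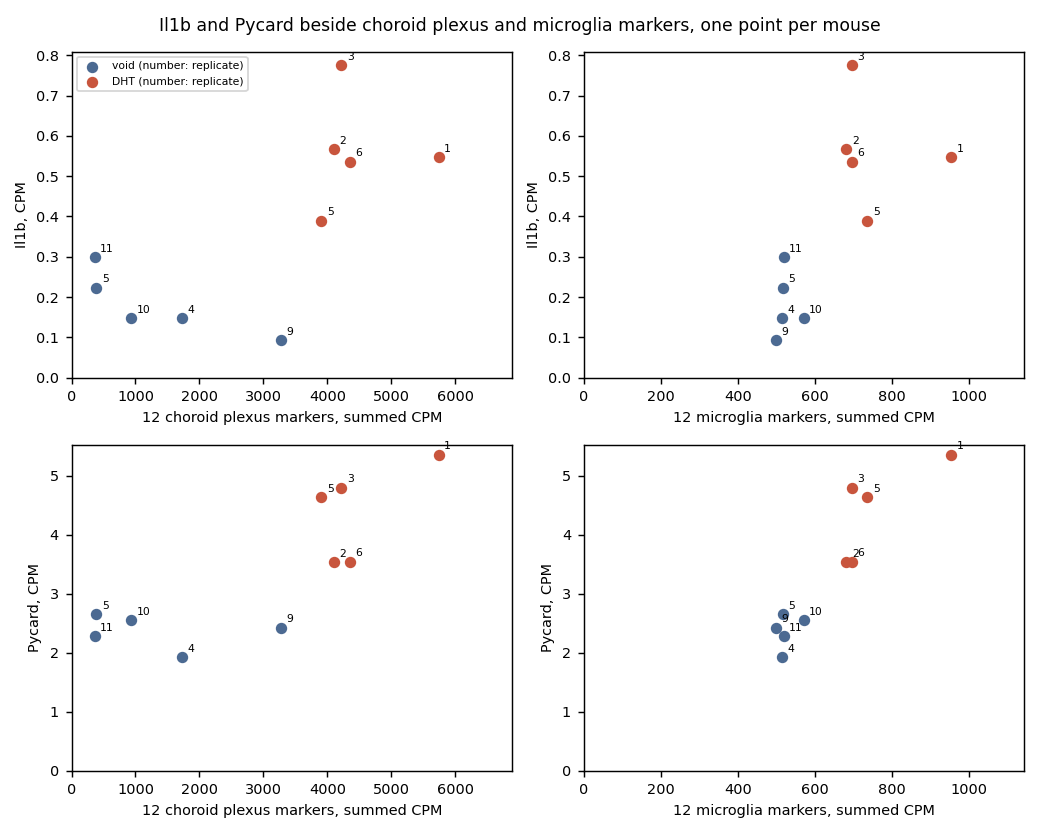
Il1b (top) and Pycard (bottom) in CPM against the summed CPM of 12 choroid plexus markers (left) and of 12 microglia markers (right), with a point for each void-treated (blue) and DHT-treated (red) mouse and its replicate number beside it. The groups do not overlap on any of the axes, and void replicate 9, at 3269 CPM, is the void mouse nearest the DHT group on the left.

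The summed levels of the remaining lists did not pass the exact permutation test over 12 lists. Neutrophil markers (S100a8, S100a9, Ly6g, Ngp, Camp, Ltf, Mmp8 and Cxcr2), from cells known to hold much Il1b, summed to 0.625 ± 0.326 CPM in void and 0.655 ± 0.300 CPM in DHT-treated females (SD, n = 5), with S100a9 the most abundant at 0.212 and 0.208 CPM. The T and NK cell list went from 1.26 ± 0.242 to 1.90 ± 0.50 CPM (exact permutation test, adjusted p = 0.159). Trac, its most abundant gene, stood at 0.737 and 0.724 CPM. Cd3d (1 and 13 counts over the void and the DHT libraries), Cd3g (8 and 29) and Nkg7 (5 and 22) had no overlap between groups in CPM. These genes were picked after their values were seen, and Cd3e, Cd8a, Cd4, Klrb1c and Trac of the same list overlapped. Cd3d, Cd3g and Nkg7 were not fitted, so the 5.39% of fitted genes with no overlap does not cover them. In raw counts Cd3d tied, at 1 in void replicate 4 and in DHT replicates 2 and 5. Cd8a had 15 and 62 counts. By the mean of log2 CPM in place of the sum, 3 lists passed in place of 2, and the T and NK cell list was higher by 0.77 on the log2 scale (exact permutation test, adjusted p = 0.0317). Border macrophage markers stood at 8.39 ± 5.34 and 9.79 ± 3.37 CPM, with Mrc1 the most abundant (3.85 and 4.43 CPM). The 6 blood monocyte markers summed to 30.7 ± 1.3 and 34.1 ± 4.65 CPM, nearly all of it Vcan (29.5 and 32.7 CPM), which other cells of the brain are known to express too. Of the other 5, Ly6c2 stood at 0.645 and 0.910 CPM and Ccr2 at 0.371 and 0.431 CPM. Red cell markers stood at 1.36 ± 0.793 and 1.36 ± 0.632 CPM, with Hbb-bs the most abundant (0.822 and 0.795 CPM). Astrocyte markers stood at 6688 ± 920 and 7266 ± 706 CPM, most of it Slc1a2 (4407 and 4288 CPM). Of these 8 genes, 1 passed, where 5.22% of all genes were higher. It was Gfap, a filament protein that reactive astrocytes make more of, which was chosen after its values were seen. Gfap went from 431 ± 95.3 to 975 ± 254 CPM with no overlap between groups (log2 fold change 1.18, edgeR quasi-likelihood test, Benjamini-Hochberg adjusted p = 0.00761). The summed levels in void and DHT-treated females were 8747 ± 359 and 8322 ± 715 CPM for neuron markers, 3513 ± 420 and 3906 ± 161 CPM for oligodendrocyte markers, and 240 ± 21 and 243 ± 10.1 CPM for endothelial markers. No gene of the 12 marker lists was at 0 in all 10 libraries. The part of these cell types in the levels of the 10 genes was not tested.

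Annotated genes on the opposite strand share exon bases with Il1a (Gm14023, 222 bases), Il1b (Il1bos, 25 bases) and Pycard (Gm45205, 485 bases). Whether the counting used strand is not given in the sources used here, so reads from each gene and its partner cannot be told apart with certainty. The rows of these partners were low: Il1bos had 25 counts over the void and 32 over the DHT libraries, and Gm45205 had 32 and 18. Gm14023 stood at 0.277 ± 0.0881 and 0.310 ± 0.109 CPM (log2 fold change 0.14, edgeR quasi-likelihood test, Benjamini-Hochberg adjusted p = 0.892).

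The promoters of Il1b and Pycard are shown because these 2 of the 10 genes passed, Il1b with the limit of the filter given above. Each is the 250 bases before the RefSeq transcript start, from RefSeq on GRCm38.p6, written 5′ to 3′ along the gene, with matches to the motifs searched in capitals. That of Il1b is chr2:129371140-129371389 on the minus strand and holds no match. That of Pycard is chr7:127993868-127994117 on the minus strand and holds a match to the PU.1 motif on the opposite strand, 43 bases before the start.
Il1b: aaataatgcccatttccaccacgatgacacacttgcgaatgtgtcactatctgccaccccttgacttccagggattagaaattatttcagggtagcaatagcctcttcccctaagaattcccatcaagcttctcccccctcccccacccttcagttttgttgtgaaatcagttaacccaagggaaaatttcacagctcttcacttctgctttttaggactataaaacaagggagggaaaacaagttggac
Pycard: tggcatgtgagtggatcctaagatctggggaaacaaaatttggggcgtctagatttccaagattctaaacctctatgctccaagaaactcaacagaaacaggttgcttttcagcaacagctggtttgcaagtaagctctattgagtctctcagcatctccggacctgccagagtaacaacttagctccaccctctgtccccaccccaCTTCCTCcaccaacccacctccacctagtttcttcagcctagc

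Motifs were searched as exact letters on both strands, in 13 promoters of 9 of the 10 genes, all but Gsdmd, and in all 32851 promoters of that length. The letters GAGGAAG, bound by the myeloid factor PU.1, were found for Il1a, Nlrp3, Aim2 and Pycard and in 10.6% of all promoters. The NF-kB letters GGGANTTCC were found only for Casp4, as GGGATTTCC and as GGAAGTCCC, in both of its overlapping promoters, and in 1.43% of all promoters. The AP-1 letters TGANTCA were found for Il1a and Il1rn (6.75% of all promoters). The nuclear receptor letters AGGTCA were found for Il1rn (14.0%) and the androgen receptor letters AGAACA for Il18 and Casp1 (16.1%). Neither GAAANNGAA of interferon response elements (7.13%) nor TTCNNNGAA of STAT sites (7.02%) was found. No match overlapped a match to another motif. A match describes letters in the window and not a bound site.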

How the data were processed

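Hippocampal RNA of 10 mice, 5 with void and 5 with DHT implants, was sequenced as mRNA libraries. The authors deposited raw counts per gene, made by trimming with HTStream and alignment with STAR 2.7.10b. The study's methods name mm10, whereas the submitters' processing notes name mm39, so the conflict is unresolved here. Of the identifiers, 91.3% had a symbol in GENCODE M21, and 99.9% of these carried a later version, so that reference gave only names, exon lengths and overlaps. The counter, its release and its strand setting are not given in the sources used here.

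The labels gave each mouse's group. In edgeR 4.0.16 (R 4.3.3), counts were filtered by group, TMM-normalized and fitted with the quasi-likelihood test, and p was adjusted over 17622 genes by Benjamini-Hochberg. A call needed both adjusted p below 0.05 and an absolute log2 fold change above 1. Each standard error was derived from its F statistic, as the size of the estimate over the root of F. Summed marker levels were compared by two-sided exact permutation tests. DESeq2 1.42.0, other normalizations and filters, marker covariates and leaving out each mouse were alternatives. Scripts were tested on simulated data. Total counts per mouse ranged from 27188854 to 47113661, so a gene at 0.1 CPM rests on a handful of counts.

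The 10 genes and the lists were chosen with earlier results of these data known. Besides them, pathway genes with an adjusted p under 0.05 were named, together with Il1r1, Il1r2, Il1rap, Il33, Il18bp, Il6, Tnf, P2rx7, Nek7, Nlrc4, Casp8 and Myd88 whatever their values. The result for 1 marker gene is not reported here.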

Additional observations from a re-analysis of the deposited data

Results flagged for a closer look

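In 82 groups of 5 libraries, the distance of the highest or lowest library to its nearest neighbour was divided by the range of the group, and 11 groups exceeded Dixon's 95% critical value of 0.71. Chance gives about 1 in 20, or 4.1 of 82. Among the 10 genes, void replicate 4 was far below the other void libraries for Nlrp3 (1.14 CPM, ratio 0.787) and void replicate 5 far above them for Aim2 (3.67 CPM, ratio 0.721). Void replicate 5 also stood high for Il18bp (2.97 CPM, ratio 0.733) and low in the summed hippocampal neuron markers (1073 CPM, ratio 0.8).

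DHT replicate 1 stood far above the other DHT libraries in the summed markers of microglia (953 CPM, ratio 0.801), choroid plexus (5742 CPM, ratio 0.758), astrocytes (8503 CPM, ratio 0.797) and red cells (2.46 CPM, ratio 0.746). Void replicate 10 stood above the other void libraries in the microglia markers (571 CPM, ratio 0.719). At very low counts, DHT replicate 3 was apart for Il6 (0.126 CPM, ratio 0.763) and DHT replicate 6 for Tnf (0.387 CPM, ratio 0.739).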

How the results depend on the processing

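No paired analysis was possible because only the number 5 occurs in both groups. Il1b was called in every fit that left out a mouse, and Pycard kept an adjusted p under 0.05 in each. Those fits were filtered by group as well, so for Il1b they have the limit of the filter given above. Of the 10 genes, 1 was called higher in the main comparison, 2 by DESeq2 and 2 with every gene that had a count fitted (Il1b and Il1rn), 2 with no limit on the fold (Il1b and Pycard), and 0 with at least 10 counts required in every library, which removed Il1b, Casp4 and Il1rn. These stood against 2.17% of all genes in the main comparison, 2.22% by DESeq2, 1.34% with every gene that had a count and 1.7% under that stricter filter. The number higher at an adjusted p under 0.05 was 2 in the main comparison, 4 by DESeq2 and 1 under the stricter filter, against 5.22%, 5.84% and 5.2% of all genes in those fits. With the choroid plexus or the microglia covariate it was 0 and 0, the number called 0 and 0, and the pathway genes higher 0 and 0 in place of 8, where DESeq2 gave 12 (edgeR quasi-likelihood test, Benjamini-Hochberg adjustment). The log2 fold changes of Nfkb1, Trim30a, Casp8 and Naip2 were 0.33, 2.09, 0.56 and 1.14 with the choroid plexus covariate. Those of Vcam1, Icam1, Ctsb and Zbp1 were 0.59, 1.16, 0.29 and 2.40. With the microglia covariate they were, in the same order of genes, 0.16, 0.88, 0.36, 0.32, 0.31, 0.36, 0.20 and 1.87. The covariates follow the groups, and the cause was not tested.

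Over all genes, 382 were called higher and 4 lower. Higher calls numbered 0 and 0 with the covariates, 920 with no limit on the fold and 175 to 513 with a mouse left out (250 without void replicate 4, 197 without void replicate 11, 175 without DHT replicate 1 and 242 without DHT replicate 3). Lower calls numbered 7 by DESeq2, 8 with every gene that had a count fitted, 2 under the stricter filter, 0 and 0 with the covariates, 46 with no limit on the fold and 0 to 7 with a mouse left out (0 without void replicate 5 or 11, 7 without void replicate 9). The cause was not tested.

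With the microglia covariate 3 log2 fold changes changed sign: Il18 from 0.04 to -0.19, Casp1 from 0.07 to -0.39 and Nlrp3 from 0.49 to -0.00897, and with a mouse left out Il18 ranged from -0.034 to 0.12 and Casp1 from -0.078 to 0.28. With a mouse left out, 0 to 3 marker lists passed in place of 2 (0 without DHT replicate 1, 2, 3 or 6). Summed log2 differences that crossed 0 in those fits ranged from -0.27 to 0.45 for neutrophil, -0.17 to 0.37 for red cell, -0.11 to 0.038 for hippocampal neuron and -0.011 to 0.069 for endothelial markers, and hippocampal neuron markers gave 0.00593 by library size alone. Depth limited Il1rn, Il6, Tnf and Nlrc4, with 9, 10, 9 and 20 counts over the void libraries.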
